A study of Mus musculus with 56 samples.

Results

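Interferon-stimulated genes were followed over the day in visceral adipose tissue (VAT) of mice fed at opposite times of day. The 9 genes Ifi27l2a, Ifit1, Ifit3, Isg15, Irf7, Oasl2, Usp18, Rsad2 and Bst2 were taken by symbol from the 25939 genes of the deposited table, and all 9 were present. Ifi27l2a was selected on its level, which was lower under DRF at every time point, so no difference in level between the regimens is tested for these genes. VAT RNA had been sequenced from 56 female C57BL/6J mice, with 4 mice at each of 7 time points (ZT0 to ZT24 at 4-h intervals, ZT being hours after lights on) under each of 2 regimens. In daytime-restricted feeding (DRF) food was given in the light phase, and in nighttime-restricted feeding (NRF, the control) in the dark phase. All mice were 9 weeks old, were of the same strain with no altered allele, were kept in a 12 h light and 12 h dark cycle in a pathogen-free facility, and had been on their regimen for 7 days. Each library came from a single mouse, and a replicate number names different mice in different groups.

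Type I interferons bind a receptor at the cell surface that signals through JAK kinases to transcription factors, and these switch on a large set of antiviral genes by binding the interferon-stimulated response element in their promoters. The 9 genes cover several roles in that response. Irf7 is a transcription factor that amplifies interferon production. Isg15 is a ubiquitin-like protein that is attached to other proteins, and Usp18 is the protease that removes it and also dampens receptor signalling. Ifit1 and Ifit3 bind foreign RNA, Oasl2 belongs to the oligoadenylate synthetase family, Rsad2 (viperin) makes a chain-terminating nucleotide, Bst2 (tetherin) holds budding virus at the cell membrane, and Ifi27l2a is a small interferon-induced membrane protein. Adipose tissue holds macrophages and other immune cells besides adipocytes, and all of them can express such genes.

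The interferon-stimulated response element was searched as GAAA, any 2 bases and GAAA again, on either strand, in RefSeq promoters of 300 bases (250 before to 50 after the start of the gene, GRCm38.p6). A promoter was listed for 7 of the 9 genes, those other than Ifi27l2a and Usp18. The core was found in 5 of the 7 promoters, in 35 of 87 promoters of the other pathway genes described further on (40.2%) and in 3.44% of all 32851 promoters. It occurred 2 or more times in 4 of the 7 and in 0.225% of all. The core of the gamma-activated site (TTC, any 3 bases, GAA) was found in Bst2 only, against 8.3% of all promoters. The windows that hold the matches follow here because they show where the core lies in 5 of the 9 genes. Whether these matches act as response elements was not tested. They are written 5′ to 3′ on the strand of the gene. Capitals mark the bases that match the interferon-stimulated response element, and the gamma-activated site core of Bst2 is not marked. Overlapping matches run together, so that Isg15 has 3 matches and Bst2 has 2 in a single run.
Ifit1, chr19:34640770-34640828, plus strand: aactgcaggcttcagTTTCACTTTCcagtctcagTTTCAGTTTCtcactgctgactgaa
Ifit3, chr19:34583358-34583431, plus strand: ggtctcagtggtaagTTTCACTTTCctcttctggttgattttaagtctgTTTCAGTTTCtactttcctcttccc
Isg15, chr4:156200860-156200911, minus strand: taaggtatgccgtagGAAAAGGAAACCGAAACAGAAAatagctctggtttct
Rsad2, chr12:26456548-26456587, minus strand: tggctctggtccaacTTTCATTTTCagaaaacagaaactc
Bst2, chr8:71537572-71537617, minus strand: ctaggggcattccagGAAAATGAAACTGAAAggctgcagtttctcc
The first match began 78 bases before the start of Isg15, 104 before Ifit1, 120 before Rsad2, 130 before Bst2 and 156 before Ifit3. Irf7 and Oasl2 had neither core in this window.

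Depth was similar in all libraries, from 31167928 to 41282532 recovered reads, the median library having 35040688 in the DRF arm and 35953187 in the NRF arm. Levels are given as CPM, reads per 1e+06 of the effective library size that the deposited values imply. That size was 0.933 to 1.355 times the recovered reads of a library (median 1.03 under DRF and 1.08 under NRF), and the highest ratio was that of DRF ZT8 replicate 1. Differences are given on the log2(CPM + 1) scale, on which changes of weakly expressed genes come out too small. Nothing in the labels ties mice to a cage, so p-values measure the spread between these mice. The tissue was checked with adipocyte markers, whose summed level was 16660 to 27430 CPM under NRF and 9297 to 31820 CPM under DRF. The 2 DRF libraries ZT0 replicate 4 and ZT8 replicate 1 stood apart: the 8 markers of uterine or other epithelium summed to 7071 and 640 CPM there, against at most 112 CPM in the other 26 DRF libraries and 46.0 CPM under NRF. Neutrophil markers were also highest there, at 11.0 and 21.01 CPM against at most 4.70 CPM in those 26 libraries. Values without these libraries are given beside the results that they move most.

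The member levels spanned a wide range (the plot of members by time point). Per kilobase of exon, the NRF medians were 1091 CPM for Ifi27l2a, 69.9 for Bst2, 16.5 for Ifit3, 11.7 for Isg15, 7.26 for Irf7, 4.77 for Oasl2, 4.68 for Rsad2, 4.52 for Ifit1 and 1.80 for Usp18. In this order Oasl2, Rsad2 and Ifit1 are neighbours that differ by less than the spread of each between mice, and the other neighbours differ by more than the SD of either. The exon length used for Irf7, 3776 bases, equals its whole annotated span. Its level per kilobase, and so its place in the order, may be too low. Ifi27l2a gave 3381 to 107264 reads per library, and the least read gene, Usp18, gave 72 to 875.

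**Figure D1:**
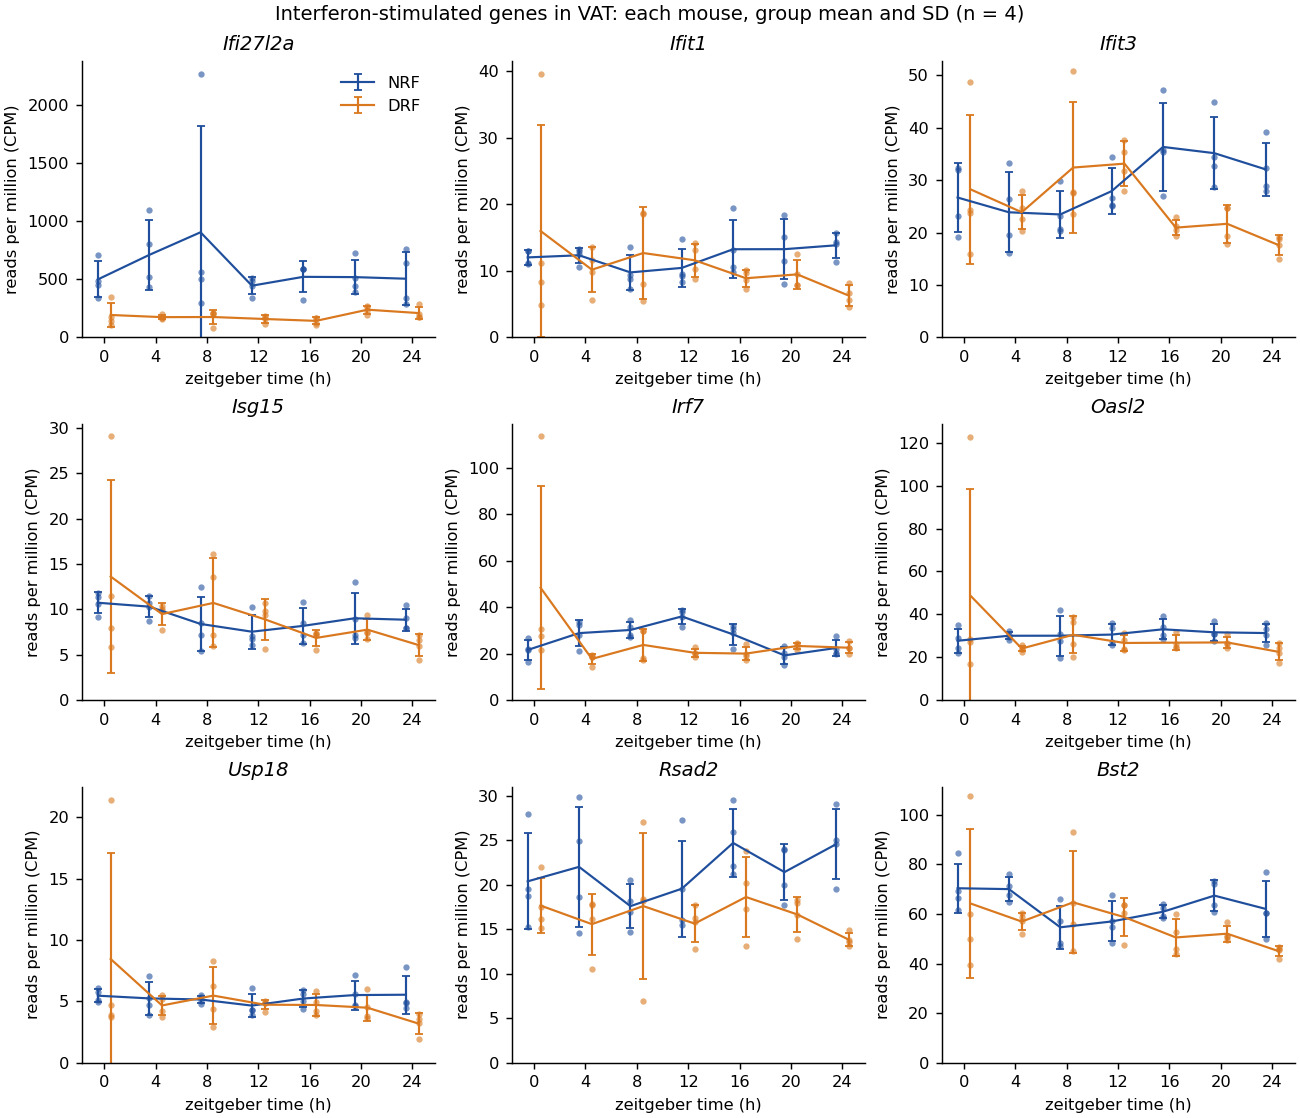
CPM of the 9 genes (y axis, from 0) against zeitgeber time (x axis, h) under NRF (blue) and DRF (orange). Points are single mice, lines join group means, and bars show the SD (n = 4) and are clipped at 0. The DRF mean of Ifi27l2a lies below the NRF mean at each time point, and the single DRF point far above the others at ZT0 in Ifit1, Isg15, Irf7, Oasl2 and Usp18 is replicate 4.

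Ifi27l2a was chosen for its lower level under DRF, so the size of that difference is a description and was not tested. It lies on chromosome 12 at 103442167 to 103443680 (minus strand, GRCm38). Under NRF its level ranged from 286 to 2268 CPM with a median of 505 CPM (n = 28). Under DRF it ranged from 78.4 to 346 CPM with a median of 174 CPM (n = 28), so the median was 2.90-fold higher under NRF. The fitted difference, DRF minus NRF, was -1.61 ± 0.14 (SE) on the log2 scale.

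Its mean was lower under DRF at each time of day, which is how the gene was chosen and not a separate finding. At ZT8 the 4 NRF mice had 293, 2268, 503 and 559 CPM and the 4 DRF mice 78.4, 211, 210 and 199 CPM. At ZT20 the NRF mice had 508, 392, 731 and 445 CPM and the DRF mice 194, 259, 229 and 270 CPM. The log2 differences were -2.01 at ZT8 and -1.09 at ZT20, the extremes of the 7 time points. Without NRF replicate 2 the difference at ZT8 was -1.42, and that at ZT4 (-1.93) was then the largest. DRF and NRF mice did not overlap from ZT4 to ZT24, a pattern that 2 of 24529 genes had (0.00815%), the other being Itih4. This span leaves out ZT0, where Ifi27l2a overlapped, and the gene was chosen on this contrast. The share is therefore a description and no test. At ZT24 the margin was narrow, with 286.1 CPM in the highest DRF mouse and 286.3 CPM in the lowest NRF mouse. At ZT0 DRF replicate 3, at 346 CPM, lay above NRF replicate 4, at 342 CPM. This order rests on the effective library size. The DRF library had fewer reads of the gene (12414 against 12456) and more recovered reads (35260004 against 34783986). Per recovered read it therefore lay below the NRF library. A lower fitted difference was found for 2 other genes, Serpina3k (-1.73) and Mup22 (-1.70), whose NRF levels on the log2 scale were 3.89 and 3.37 against 9.04 for Ifi27l2a.

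A single mouse set the top of the NRF range. NRF ZT8 replicate 2 had 2268 CPM, against at most 1094 CPM in the other 27 NRF mice. Its summed B cell markers (28.3 CPM), lymph node stroma markers (18.1 CPM) and red cell markers (746 CPM) were also the highest of the NRF libraries, the others reaching 22.4, 17.1 and 571 CPM, and their part in the value was not tested. Without this library the difference was -1.52 ± 0.12, and without the 2 DRF libraries that stood apart it was -1.55 ± 0.14. Ifi27l2a in those 2 DRF libraries was 143 and 78.4 CPM, the latter being the lowest of all.

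The neighbouring genes of the same family did not show this difference. Ifi27, which lies beside it at chr12:103434211-103440239, had a median of 440 CPM under NRF and 450 CPM under DRF (log2 difference 0.00 ± 0.06, limma adjusted p = 0.995). Ifi27l2b, at chr12:103450898-103457223, had 0.359 and 0.344 CPM (-0.01 ± 0.05, adjusted p = 0.895). No other listed gene overlapped Ifi27l2a.

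The other 8 members differed far less between regimens (the plot of differences by time point). Their fitted log2 differences ranged from -0.35 (Rsad2) to -0.03 (Isg15), with a median of -0.17, against -0.00 over all genes. The fitted mean was lower under DRF for 9 of 9 members and for 50.5% of all genes. For Isg15 the sign turned without the ZT24 libraries (0.01) or without replicate 3 of every group (0.02). It was lower at all 7 time points for Ifi27l2a and Rsad2 and for 3.24% of all genes. These values come from the contrast that the choice of genes used, and they were not tested.

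**Figure D2:**
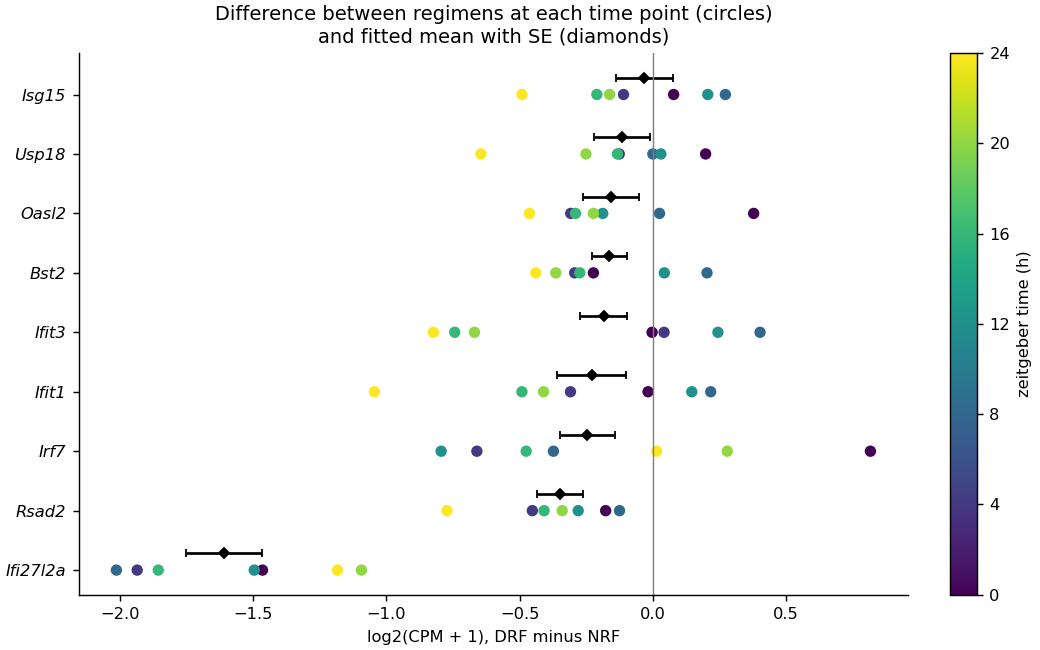
Difference DRF minus NRF in log2(CPM + 1) for each member (rows). Circles are the time points, coloured by zeitgeber time, and diamonds are the fitted means with their SE. Ifi27l2a lies between -2.01 and -1.09 at all time points, whereas 7 of the other members have circles on both sides of 0 and Rsad2 lies between -0.77 and -0.12.

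Rsad2 ranged from 14.6 to 29.9 CPM under NRF (median 20.3) and from 6.92 to 27.0 CPM under DRF (median 16.4). The ranges overlapped widely and the fitted difference was -0.35 ± 0.09. Bst2 had a median of 63.1 CPM under NRF (47.2 to 84.4) and 52.2 CPM under DRF (39.3 to 108), with a difference of -0.16 ± 0.07. Its DRF maximum was the ZT0 replicate 4 library.
For Ifit1 the medians were 12.0 CPM under NRF (7.30 to 19.4) and 9.14 CPM under DRF (4.58 to 39.6), and the difference was -0.23 ± 0.13. Ifit3 had 28.7 CPM (16.2 to 47.3) and 23.7 CPM (15.0 to 50.9), with a difference of -0.18 ± 0.09. These RNA-binding proteins have near copies beside them, Ifit1bl1 and Ifit3b, and reads shared with a copy could be assigned to either gene or dropped.
Isg15 had medians of 8.82 CPM under NRF (5.38 to 13.1) and 7.49 CPM under DRF (4.44 to 29.2), with a difference of -0.03 ± 0.11. Its protease Usp18 had 5.03 CPM (3.92 to 7.81) and 4.32 CPM (1.95 to 21.4), with a difference of -0.12 ± 0.10. For both genes the DRF range enclosed the NRF range. In the 26 DRF libraries other than those that stood apart, Usp18 ran from 1.95 to 6.28 CPM, which does not enclose the NRF range, and Isg15 from 4.44 to 13.6 CPM, which does.
Irf7 had medians of 27.4 CPM under NRF (15.0 to 38.9) and 21.6 CPM under DRF (14.4 to 114), with a difference of -0.25 ± 0.10. Oasl2 had 30.4 CPM (19.5 to 42.0) and 25.8 CPM (16.8 to 123), with a difference of -0.16 ± 0.10. In both genes the DRF maximum lay far above the other DRF mice.

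The number of members with no overlap between regimens varied over the day and was highest at ZT24, a count from the contrast used to choose the genes, with no test. At ZT24 the DRF mice lay below all NRF mice for 7 of 9 members, against 7.73% of all genes, the exceptions being Irf7 and Oasl2. Ifit1 at ZT24 was 14.3, 11.3, 14.02 and 15.7 CPM under NRF and 6.71, 8.21, 4.58 and 5.62 CPM under DRF. Usp18 was 4.97, 4.90, 4.46 and 7.81 CPM under NRF and 3.96, 3.59, 1.95 and 3.23 CPM under DRF. At the earlier time points the number of members with no overlap, DRF being lower in each case, was 0 at ZT0 (5.01% of all genes), 4 at ZT4 (12.8%), 1 at ZT8 (6.08%), 2 at ZT12 (10.4%), 2 at ZT16 (9.41%) and 3 at ZT20 (10.6%). These were Irf7 at ZT4 and ZT12, Oasl2 at ZT4, Bst2 at ZT4 and ZT20, Ifit3 at ZT16 and ZT20, and Ifi27l2a from ZT4 on. ZT0 is the same clock time as ZT24, and without DRF ZT0 replicate 4 the regimens did not overlap there for Usp18 and Bst2 (2 of 9, against 8.02% of all genes in the same comparison of 3 with 4 mice). Under DRF the mean of each member other than Ifi27l2a was lower at ZT24 than at ZT0, with log2 differences of -0.32 (Rsad2) to -0.85 (Usp18). Without DRF ZT0 replicate 4 these were -0.075 (Oasl2) to -0.39 (Isg15), with -0.21 for Rsad2 and -0.32 for Usp18. Under NRF the difference ranged from -0.25 (Isg15) to 0.28 (Ifit3 and Rsad2). These differences between ZT24 and ZT0 were not tested on their own.

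The DRF ZT0 group holds a mouse with raised interferon-stimulated genes. DRF ZT0 replicate 4 had the highest DRF value of 6 members (Irf7, Oasl2, Isg15, Usp18, Ifit1 and Bst2) and the second highest of Ifit3. Its Irf7 level was 114 CPM, against 14.4 to 30.8 CPM in the other 27 DRF mice. Oasl2 was 123 CPM there and at most 38.9 CPM in the others, and Usp18 was 21.4 CPM and at most 8.28 CPM. Rsad2, at 22.0 CPM, and Ifi27l2a, at 143 CPM, lay within the range of the others. DRF ZT8 replicate 1, the other library that stood apart, was second highest for Isg15, Oasl2, Usp18 and Bst2. Epithelial markers were raised in the same libraries, and their part in these values was not tested.
Without the 2 libraries the differences between regimens were -0.33 ± 0.10 for Ifit1, -0.33 ± 0.06 for Irf7, -0.25 ± 0.06 for Oasl2, -0.21 ± 0.07 for Usp18, -0.22 ± 0.05 for Bst2, -0.20 ± 0.07 for Ifit3, -0.37 ± 0.09 for Rsad2 and -0.12 ± 0.08 for Isg15. Each of these 8 lay further from 0 than with all 56 libraries. This follows from leaving out high DRF values and is no separate finding.

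The time course within a regimen was not used to choose the genes, so oscillation over the day was tested. Earlier results of these data were, however, known when the genes were chosen. A 24-h rhythm was called when the JTK_CYCLE and Lomb-Scargle p values, joined with Fisher's method after MetaCycle, gave a Benjamini-Hochberg adjusted p under 0.05 over all genes. Under NRF, Irf7 was the only member called (1 of 9, with 25.7% of all genes called, and 2 of 9 at an unadjusted p under 0.05). Under DRF no member was called (0 of 9, with 13.8% of all genes called, and 1 of 9 at an unadjusted p under 0.05). The limma cosine test called Irf7 and Ifit3 under NRF (35.8% of all genes) and Ifit3 under DRF (28.5% of all genes). The other 7 members were not called by any of these tests in any regimen.

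Irf7, the transcription factor, rose through the light phase under NRF and was highest at its end. The means ± SD under NRF were 21.6 ± 4.2 CPM at ZT0, 30.2 ± 3.3 CPM at ZT8, 36.02 ± 3.2 CPM at ZT12 and 19.2 ± 3.5 CPM at ZT20 (n = 4 each). The 4 mice at ZT12 (31.5 to 38.9 CPM) lay above all 4 mice at ZT20 (15.0 to 23.4 CPM). The combined rhythm test gave an adjusted p of 0.000412, and the fitted cosine peaked at ZT9.98 ± 1.09 h with an amplitude of 0.38 ± 0.10 on the log2 scale (SE). Lomb-Scargle on its own did not pass (adjusted p = 0.115).
Under DRF the means of Irf7 were 17.7 ± 2.3 CPM at ZT4, 20.3 ± 1.8 CPM at ZT12 and 23.3 ± 1.4 CPM at ZT20, and 48.4 ± 43.6 CPM at ZT0, where replicate 4 is included (26.7 ± 4.6 CPM without it, n = 3). The rhythm was not called (adjusted p = 1.0, and 0.559 without the 2 libraries), and the cosine amplitude was 0.21 ± 0.10. The rhythm of Irf7 differed between the regimens (limma, 2-df test of the cosine and sine terms, adjusted p = 0.00268, and 1.56e-05 without the 2 DRF libraries). Without replicate 3 of every group it missed the threshold (adjusted p = 0.0636). The annotated end of Irf7 (141262706 to 141266481 on chromosome 7) overlaps that of Phrf1 on the opposite strand, which ends at 141262750. The kit did not mark strand, so reads from that overlap cannot be told apart. The same holds for Usp18, which overlaps the antisense non-coding gene Gm44148 (median 0.124 CPM) over most of its length.

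Ifit3 showed its high and low phases at different times in the 2 regimens. Under NRF its mean was lowest at ZT8 (23.5 ± 4.4 CPM) and highest at ZT16 (36.4 ± 8.4 CPM), followed by ZT20 (35.2 ± 6.9 CPM). Under DRF it was highest at ZT12 (33.2 ± 4.3 CPM) and lowest at ZT24 (17.6 ± 1.9 CPM), and the 4 mice at ZT12 (27.9 to 37.6 CPM) lay above all 4 at ZT24 (15.0 to 19.1 CPM). The fitted peaks were at ZT18.14 ± 0.92 h under NRF and ZT9.41 ± 1.08 h under DRF, with amplitudes of 0.34 ± 0.09 and 0.31 ± 0.09. The rhythm differed between regimens (limma adjusted p = 0.000585). In the combined rhythm test Ifit3 missed the threshold under NRF (adjusted p = 0.0786) and under DRF (0.0818), and without the 2 DRF libraries it passed under DRF (0.00149).

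**Figure D3:**
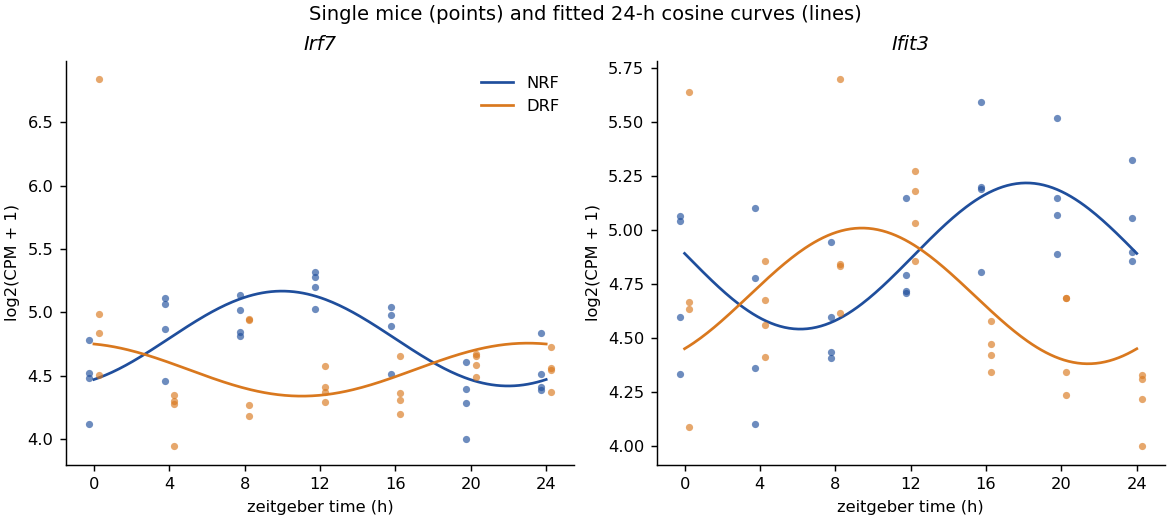
log2(CPM + 1) of Irf7 and Ifit3 (y axes, not starting at 0) against zeitgeber time (x axes, h). Points are single mice under NRF (blue) and DRF (orange), and lines are the fitted 24-h cosine curves. The Irf7 curve peaks at ZT9.98 under NRF, and the Ifit3 peak lies at ZT18.14 under NRF and ZT9.41 under DRF.

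Irf7 and Ifit3 were the members whose rhythm differed between regimens (2 of 9, with 38.1% of all genes called and 3 of 9 at an unadjusted p under 0.05). Without the 2 DRF libraries 4 of 9 were called, with 42.8% of all genes, the added members being Bst2 (adjusted p = 0.00437, and 0.0622 with all libraries) and Ifit1 (0.0250, and 0.210 with all libraries). In a test with no assumed wave shape, limma over the 7 time points, Irf7 differed among time points under NRF (1 of 9, adjusted p = 0.0341, with 29.5% of all genes), and Irf7 and Ifit3 under DRF (2 of 9, adjusted p = 0.0135 and 0.0142, with 30.1% of all genes). The NRF call of Irf7 was lost without the ZT24 libraries (adjusted p = 0.0538) and without replicate 1, 2 or 3 of every group (0.0982, 0.184 and 0.313). Its DRF call was lost without the 2 DRF libraries (0.0994) and without replicate 3 or 4 (0.0841 and 0.202). The DRF call of Ifit3 was lost without the ZT24 libraries (0.110) and without replicate 2 or 3 (0.115 and 0.0755). Ifi27l2a was far from a rhythm by each test, with adjusted p values of 0.498 under NRF and 0.447 under DRF in the cosine test.

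Mice of the same group differed in the 8 members other than Ifi27l2a together when all 56 libraries were used. For each pair of the 9 genes, the deviations of the 56 mice from their group mean were correlated, and permutation tests within groups (100000, two-sided) were adjusted over the 36 pairs. All 28 pairs among the 8 members other than Ifi27l2a were correlated (Pearson's r 0.35 to 0.91, median 0.73, Spearman's rho 0.35 to 0.84, largest adjusted p = 0.029 for r and 0.03 for rho). Of all pairs among the 14104 genes with a mean log2 level of at least 1, 12.8% had an r as high as the lowest of these 28, and 17.7% in the 54 libraries without the 2 DRF libraries. None of the 8 pairs with Ifi27l2a passed (r -0.23 to 0.15, rho -0.29 to 0.15, smallest adjusted p = 0.25 for r and 0.069 for rho). The closest pair was Ifit1 and Isg15 (r = 0.91, rho = 0.84, adjusted p = 4e-05, the unadjusted 1e-05 being the smallest that these permutations give). Leaving out the 2 mice farthest from the median of the first gene of each pair left r at 0.35 to 0.85 in the 28 pairs. With replicate 1, 2, 3 or 4 of every group left out, 28, 27, 22 and 21 of the 28 passed the permutation test. Without the 2 DRF libraries the 28 pairs had r of 0.27 (Oasl2 and Usp18) to 0.84, and 25 of them passed the permutation test, the 3 that did not being those of Oasl2 with Usp18, Rsad2 and Bst2. Pairs of Ifi27l2a then had r of -0.13 (Usp18) to 0.40 (Oasl2), with a median of 0.20 against 0.04 in all 56 libraries, and 1 of the 8 passed, that with Bst2 (r = 0.39, permutation test, adjusted p = 0.047). The pooled spread between mice at a mean level of 3 to 9 on the log2 scale was a median SD of 0.37 for the 8 members there (those other than Usp18), against 0.17 for the 10102 genes. Without the 2 DRF libraries the medians were 0.29 and 0.15.

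**Figure D4:**
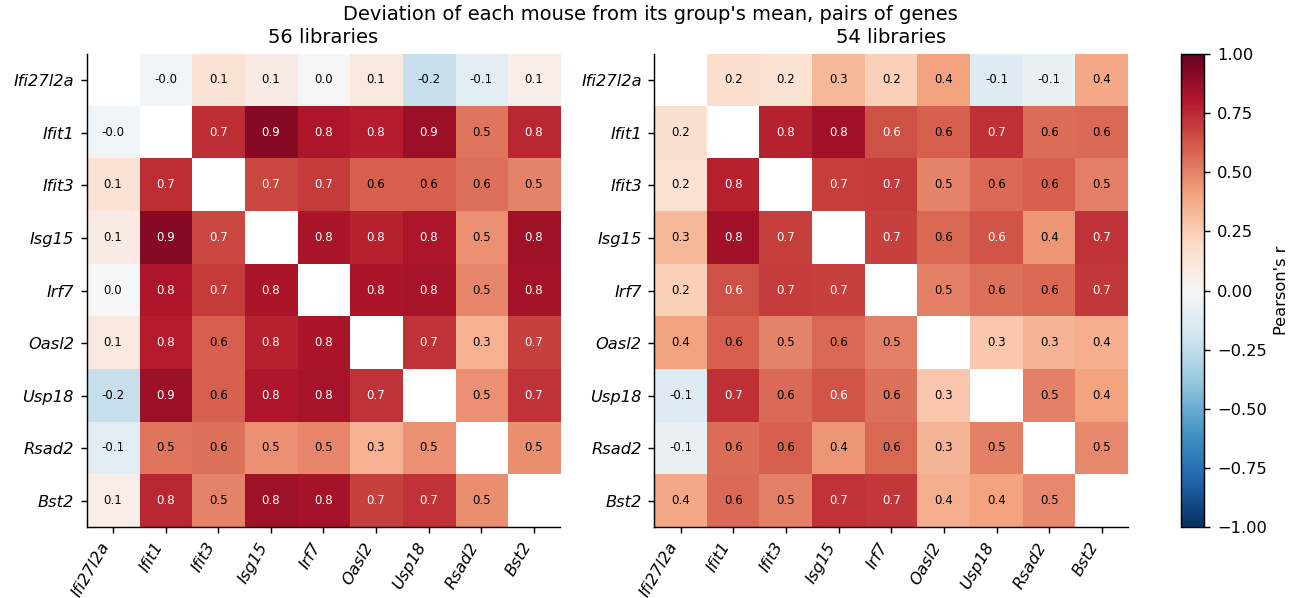
Pearson's r between pairs of members for the deviation of each mouse from its group mean, in all 56 libraries (left) and in 54 without the 2 DRF libraries that stood apart (right); colour runs from -1 (blue) to 1 (red). The 8 genes other than Ifi27l2a form a block with r of 0.35 to 0.91 on the left and 0.27 to 0.84 on the right.

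The genes whose deviations were most like the mean of the 9 members, ranked over 14095 genes as a description, were Irf9 (r = 0.90), Oas1a (0.90), Irgm1 (0.89), Zbp1 (0.88), Ifi44 (0.88), Phf11d (0.87), Oasl1 (0.84), Mx2 (0.84), Trim30a (0.84) and Oas3 (0.84), against a median of -0.03 over all genes. All 10 are on the interferon lists below. With 54 libraries Ifit2 (0.83), Oas1a (0.82) and Irf9 (0.81) led. The genes most like Ifi27l2a were not on those lists. They were H2-T22 (r = 0.75), Mgme1 (0.74), Lyz2 (0.73), C1ra (0.73) and Pfdn5 (0.72), and with 54 libraries Rpl22 (0.80), Rpl5 (0.78), Rpl3 (0.77), Rps14 (0.77) and Rpl6 (0.77), which encode ribosomal proteins. Of 82 ribosomal protein genes tested, 60 were lower and 1 higher under DRF (73.2% and 1.22%, against 11.0% and 12.2% of all genes), with a median log2 difference of -0.24 against -0.00 and a lowest value of -0.47. Ifi27l2a has 463 bases of exon. Of the 100 genes of up to 600 bases at a mean log2 level of at least 3, Ifi27l2a among them, 31 were lower and 16 higher, with a median of -0.09. Of the 10193 longer genes at that level 1579 were lower (15.5%) and 2029 higher (19.9%), with a median of 0.01. The part of either in the level of Ifi27l2a was not tested.

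The other genes of the interferon pathway were compared between regimens with limma. The lists were chosen with results of these data known, so the counts below describe these lists and are no independent test of the pathway. Of 102 genes tested in 8 lists, 50 were lower and 3 higher under DRF, while 11.0% of all genes were lower and 12.2% higher (the plot of pathway lists). The median log2 difference over the lists was -0.15, against -0.00 over all genes. Without the 2 DRF libraries 65 were lower and 4 higher, against 15.2% and 15.4% of all genes, and all 50 were again among the lower ones. Without NRF ZT8 replicate 2 the numbers were 44 and 3, against 9.87% and 11.1% of all genes, and without the ZT24 libraries they were 36 and 3, against 9.86% and 11.1%.

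**Figure D5:**
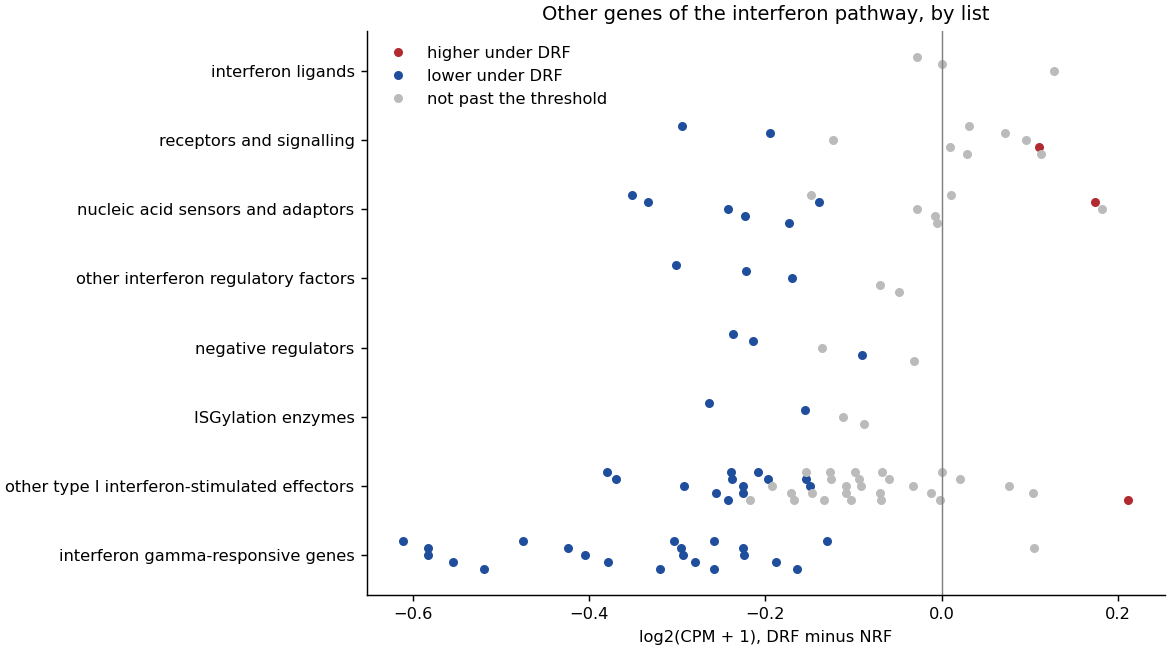
Fitted difference DRF minus NRF in log2(CPM + 1) for the 102 other genes of the interferon pathway, by list (rows). Blue points were lower and red points higher at an adjusted p under 0.05, and grey points did not pass. In the row of interferon gamma-responsive genes 21 of 22 are blue, and 3 points in all are red.

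Of the interferon genes themselves 3 were in the table, and none passed in limma, also at an unadjusted p under 0.05 (0 of 3). Ifng averaged 0.0769 CPM under NRF and 0.0516 CPM under DRF, Ifnk gave at most 5 reads in a library, and Ifne, an interferon of epithelia, was seen mainly in DRF ZT0 replicate 4, with 611 reads. It averaged 0.00557 CPM under NRF. Ifng gave at most 11 reads in a library. At such low levels a missed threshold does not show that interferon was equal in the 2 regimens.
Of 10 receptor and signalling genes 2 were lower and 1 higher. Irf9 was lower (-0.20 ± 0.06, adjusted p = 0.0129), and the receptor subunit Ifnar2 was higher (0.11 ± 0.04, adjusted p = 0.0206). Each passed in 9 of 12 settings, the main one included (highest limma adjusted p 0.125 and 0.204). The other subunit, Ifnar1, was 58.9 and 59.3 CPM (0.01 ± 0.03), and Stat2 was -0.12 ± 0.07 (adjusted p = 0.205, and -0.15 with an adjusted p of 0.0240 without the 2 DRF libraries).

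Of 13 sensors and adaptors of foreign nucleic acid 6 were lower and 1 higher. The largest were Zbp1 (-0.35 ± 0.13, adjusted p = 0.0379), Tlr7 (-0.33 ± 0.06, adjusted p = 1.97e-05), Ifih1 (-0.24 ± 0.04, adjusted p = 1.01e-06) and Tlr9 (-0.22 ± 0.08, adjusted p = 0.0272). Tlr7 and Tlr9 are endosomal receptors for RNA and DNA, and Ifih1 (MDA5) senses double-stranded RNA in the cytosol. Without NRF ZT8 replicate 2, Zbp1 missed the threshold (adjusted p = 0.0581). Dhx58, a modulator of that pathway, was higher (0.17 ± 0.06, adjusted p = 0.0320), and passed in 9 of 12 settings. Ddx58 (RIG-I), at -0.03 ± 0.05, and Tlr3, at 0.01 ± 0.04, did not pass.
Of 5 other interferon regulatory factors 3 were lower, namely Irf1 (-0.30 ± 0.04, adjusted p = 2.83e-07), Irf5 (-0.22 ± 0.05) and Irf2 (-0.17 ± 0.05). Irf3, which starts interferon production together with Irf7, was -0.07 ± 0.03 (adjusted p = 0.0968), and Irf8 was -0.05 ± 0.06.
Of 5 negative regulators Samhd1 (-0.24 ± 0.04), Socs3 (-0.21 ± 0.07) and Pias1 (-0.09 ± 0.03) were lower, and Socs3 missed the threshold without NRF ZT8 replicate 2 (adjusted p = 0.0564). Of the 4 enzymes that attach or carry Isg15, Uba7, its activating enzyme, was lower (-0.26 ± 0.07, adjusted p = 0.00224), as was the ligase Herc6 (-0.16 ± 0.05), and Ube2l6 (-0.09 ± 0.05) and Trim25 (-0.11 ± 0.07) did not pass. Without the 2 DRF libraries Trim25 passed (-0.17, adjusted p = 0.00239).

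Of 40 other type I interferon-stimulated effectors 13 were lower and 1 higher. The lower genes with the largest differences were Mndal (-0.38 ± 0.06, adjusted p = 6.27e-07), Ifi203 (-0.37 ± 0.05, adjusted p = 6.53e-07), Ifi204 (-0.29 ± 0.05, adjusted p = 5.18e-05) and Slfn5 (-0.26 ± 0.04, adjusted p = 3.53e-06). Mndal, Ifi203 and Ifi204 belong to the family of nuclear DNA-binding interferon-inducible proteins. Lgals3bp, a secreted galectin-binding protein, was higher (0.21 ± 0.06, adjusted p = 0.00380), and passed in 10 of 12 settings. With all 56 libraries several genes that resemble the members in function did not pass, among them Ifit2 (-0.13 ± 0.05), Mx1 (-0.07 ± 0.11), Oas1a (-0.17 ± 0.12), Ifi44 (-0.13 ± 0.11) and Ifitm3 (-0.15 ± 0.06). Without the 2 DRF libraries 26 of the 40 were lower and 1 higher. Of these named genes Ifit2 (-0.14, adjusted p = 0.0337), Oas1a (-0.28, adjusted p = 0.00136), Ifi44 (-0.23, adjusted p = 0.00483) and Ifitm3 (-0.21, adjusted p = 0.000241) then passed, and Mx1 did not (-0.15, adjusted p = 0.168).

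Of 22 interferon gamma-responsive genes 21 were lower under DRF, with a median of -0.30. The immunoproteasome subunit Psmb8 fell from 33.1 to 21.9 CPM (-0.61 ± 0.07, adjusted p = 9.32e-10). The class II antigen-presenting genes H2-Aa (-0.58 ± 0.07), H2-Eb1 (-0.58 ± 0.07, adjusted p = 1.88e-09) and H2-Ab1 (-0.55 ± 0.06) followed, and each was lower at all 7 time points. Tapbp, which loads peptides on class I molecules, did not pass (0.10 ± 0.05). The count was 21 lower and 1 higher without the 2 DRF libraries, the higher being Tapbp (adjusted p = 0.0155), and 18 lower without NRF ZT8 replicate 2. The difference of Ifi27l2a, which was chosen for its lower level under DRF and was not tested, was larger than that of any gene on the 8 lists.

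Some markers of immune and other cells were also lower under DRF, beside 11.0% lower and 12.2% higher of all genes. Of 9 macrophage markers 5 were lower and none higher under DRF, and their sum was 695 to 1231 CPM under NRF (median 899) and 509 to 1057 CPM under DRF (median 771). Csf1r, the receptor for a macrophage growth factor, was lower (-0.33 ± 0.06, adjusted p = 3.63e-05), as was Mrc1 (-0.34 ± 0.06). Of 5 plasmacytoid dendritic cell markers, a cell type known for its high Irf7, Siglech was the one lower (-0.58 ± 0.09, adjusted p = 5.14e-06). Of 5 conventional dendritic cell markers 1 was lower, of 5 T cell markers 2, of 5 natural killer cell markers 2, and of 5 B cell markers none (limma, also 0 of 5 at an unadjusted p under 0.05). Of 4 neutrophil markers none was lower and 1 higher (list median 0.09), namely S100a8 (0.56 ± 0.07, adjusted p = 2.23e-08). Adipose progenitor and mesothelial markers were lower for 3 of 5 each and endothelial markers for 2 of 5, 1 of 6 adipocyte markers was lower and 1 higher, and all 5 red cell markers were higher under DRF (median 0.48). No marker on these lists was at 0 in every library. In bulk tissue, fewer cells of a type and less RNA per cell cannot be told apart, and the part of these cells in the member levels was not tested.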

How the data were processed

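VAT libraries were polyA-selected, not stranded, and sequenced in pairs. The submitters' processing notes name HISAT2 2.0.5, featureCounts 1.5.0-p3 and mm10. The values that the authors deposited, 1 for each gene in each library and named TPM, are treated here as a score: log2(CPM + 1) divided by exon length and rescaled per library. How it was made is not given in the sources used here. Whole reads were recovered from the steps of the low values, and 100.0% of the 1262085 values of up to 10000 reads lay within 0.02 of a whole number. All members were recovered. The 29 values of Ifi27l2a above 10000 reads lay within 0.033 of a whole number.

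The rhythm test ran on the deposited scores of 25939 genes with a mean of at least 0.1 (Python 3.11.15, numpy 2.4.6, scipy 1.17.1). limma 3.58.1 in R 4.3.3 was fitted to log2(CPM + 1) of 24529 genes with a mean score of at least 1. The fit used a 24-h cosine and sine per regimen or the 14 group means, all 56 libraries and a trend in the variance. The plan assumed linear TPM, and log2(CPM + 1) took its place. Adjusted p values are Benjamini-Hochberg over all genes, with a threshold of 0.05. No library pair of a group agreed within sampling noise.

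The members and lists were chosen with earlier results of these data known. Named pathway genes are those past the threshold with the largest differences, at most 4 per list and direction, plus genes needed to describe a role. The 10 genes most like the members and the 5 most like Ifi27l2a were ranked among genes with a mean log2 of at least 1. Each program was tested on simulated data. Alternatives covered the pseudocount (0.1), the scaling, the filter, the rhythm test, the ZT24 libraries, each replicate number, a replicate block and the libraries that stood apart. NRF ZT8 replicate 2, and DRF ZT0 replicate 4 on its own, were left out as alternatives chosen after seeing the data. The own values of 1 gene of the pathway lists are not reported here.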

Additional observations from a re-analysis of the deposited data

Results flagged for a closer look

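Of 126 groups of 4 mice (9 members in 14 groups), 10 held a mouse far from the other 3 in CPM, where chance gives about 1 in 20. DRF ZT0 replicate 4 was such a mouse for Irf7 (114 CPM), Oasl2 (123 CPM) and Usp18 (21.4 CPM). For Ifi27l2a the mice were NRF ZT8 replicate 2 (2268 CPM, high), NRF ZT16 replicate 4 (320 CPM, low) and DRF ZT8 replicate 1 (78.4 CPM, low). For Ifit3 they were NRF ZT12 replicate 4 (34.5 CPM, high) and DRF ZT8 replicate 2 (50.9 CPM, high). Isg15 was low in DRF ZT16 replicate 1 (5.51 CPM), and Usp18 was high in NRF ZT24 replicate 4 (7.81 CPM).

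The time course differed between regimens for Ifit3 (limma test of the difference, adjusted p = 0.000585) and Irf7 (0.00268).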

How the results depend on the processing

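The level differences of the members kept their sign under each alternative except for Isg15 (0.01 without the ZT24 libraries, 0.02 without replicate 3), and their median ranged from -0.25 (without the 2 DRF libraries that stood apart) to -0.14 (without the ZT24 libraries). The number of members with a rhythm under NRF, 1 in the report, was 0 with Lomb-Scargle alone and 2 with the limma cosine test. Under DRF, 0 in the report, it was 1 with JTK_CYCLE alone, with the limma cosine test and without the 2 DRF libraries. The number with a rhythm difference, 2 in the report, was 4 without those 2 libraries and 1 to 4 when each replicate number was left out. For time points under NRF the count of 1 became 0 without ZT24 and 2 without the 2 DRF libraries, and 0 to 1 with a replicate number left out. Under DRF the count of 2 became 1 without ZT24, 1 without the 2 DRF libraries, and 0 to 2 with a replicate number left out. Other pathway genes higher under DRF, 3 in the report, were 4 without the 2 DRF libraries and 0 to 3 with a replicate number left out. Those lower, 50 in the report, were 65 without those 2 libraries, 36 without ZT24 and 35 to 45 with a replicate number left out. With a replicate number left out, 7.07% to 8.90% of all genes were lower. Fewer mice entered these fits, and the cause was otherwise not tested. The named pathway genes Irf9, Ifnar2, Zbp1, Tlr9, Dhx58, Irf2, Socs3, Pias1, Herc6 and Lgals3bp missed the threshold under at least 1 alternative (highest adjusted p 0.0710 to 0.283). Correlated pairs, 28 of 36, were 26 without the 2 DRF libraries and 21 to 28 with a replicate number left out.

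With the replicate number as a block, 50 pathway genes were lower and 3 higher, and 2 members differed in rhythm, as without it. Same-numbered mice share only a number: their deviations correlated at -0.26 to 0.31 over 28 pairs, and 7 pairs exceeded 0.1. Depth limits Usp18, which had as few as 72 reads, and Ifng and Ifnk, which had at most 11 and 5.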
